A study of Mus musculus with 14 samples.

Results

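The 8 genes described here are *Nodal*, *Lefty1*, *Lefty2*, *Tdgf1*, *Skil*, *Smad2*, *Smad3* and *Smad4*, which were chosen by name among the 52459 genes of the count tables of mouse embryonic stem cells (mESCs). All 8 were in the tables and all 8 passed the filter used for the comparisons, a mean level of at least 1 FPKM over both genotypes at 0 h, which 11869 genes passed. FPKM is the count of a gene scaled by the length of its exons and by the total count of the library. The wild-type (WT) cells were E14Tg2a mESCs, grown in serum with LIF, and the R255K cells were E14Tg2a mESCs with the METTL14 R255K knock-in, an arginine-to-lysine change made with CRISPR-Cas9. The R255K line came from a single colony, so genotype and clone cannot be told apart. Cells of both genotypes received 5 μg/ml actinomycin D, which blocks transcription, for 0, 4 or 8 h, and polyA RNA was sequenced from 1 library per genotype and time. In MeRIP-seq, RNA fragments pulled down with an antibody against N6-methyladenosine (m6A) are sequenced beside the input RNA, and 2 IP and 2 input libraries per genotype lay behind 1 list of peaks for each. On the exons of the 8 genes lay 15 of the 17693 WT peaks and 10 of the 9437 R255K peaks.

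Nodal is a secreted ligand of the TGF-beta superfamily that signals through activin receptors with a co-receptor of the EGF-CFC family, which in mESCs is chiefly Cripto, the product of *Tdgf1*. The activated receptors phosphorylate SMAD2 and SMAD3, which join SMAD4 and enter the nucleus to switch on target genes. Lefty1 and Lefty2 are secreted antagonists that are themselves targets of the pathway, and SnoN, the product of *Skil*, is a corepressor that binds the SMADs and is also a target. The pathway is known for directing mESCs toward mesoderm and endoderm. METTL14 is the partner of METTL3 in the complex that writes m6A, a mark that is known to shorten the life of many mRNAs and that sits mostly in a GGAC-like context near stop codons and in 3'UTRs.

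The 6 actinomycin D libraries held between 13812160 and 18813640 counts, and each value below stands on 1 library, with no replicate check. The intervals of levels, ratios of levels and shares left are exact 95% intervals of the counts. Those of half-lives and half-life ratios are approximate 95% intervals (delta method) from the same counts. Both kinds cover counting error only. The 8 defining markers of embryonic stem cells, among them *Pou5f1* and *Nanog*, were all present, with a summed level of 2224 to 2677 FPKM in the WT libraries and 1593 to 1855 FPKM in the R255K libraries. Of these 8, *Esrrb* (173 FPKM in WT and 80.4 in R255K) and *Tfcp2l1* (59.7 and 16.8 FPKM) were at least 2-fold lower in R255K at 0 h. The summed levels of markers of other cell states also differed between the genotypes, though not every gene of a list moved the same way. The summed level of 5 markers of 2-cell-like cells was 0 to 0.147 FPKM in the WT libraries and 4.21 to 6.46 FPKM in the R255K libraries, with *Zscan4f*, *Tcstv3* and *Usp17la* at 0 in all 3 WT libraries. That of 6 fibroblast markers was 1.66 to 2.21 against 5.96 to 7.19 FPKM, and that of 4 mesoderm markers was 0.185 to 0.719 against 1.91 to 3.28 FPKM. That of 4 trophoblast markers was 0.563 to 5.58 against 3.06 to 14.9 FPKM, with *Hand1* in both the mesoderm and the trophoblast list, and that of 6 primitive endoderm markers was 2.40 to 10.8 against 2.46 to 6.84 FPKM. Their part in the results below was not tested, and in bulk RNA fewer cells of a type cannot be told apart from less RNA per cell.

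To see where the m6A peaks of these transcripts lay, the summit of each peak, its point of highest enrichment, was placed on the GENCODE vM21 transcript of the gene. Of the 15 WT summits, 7 lay in coding sequence, 7 in 3'UTRs and 1 lay 30 bases upstream of the annotated start of *Smad3*. *Nodal*, *Skil* and *Smad3* carried 3 WT peaks each, *Smad2* and *Smad4* 2 each, and *Lefty2* and *Tdgf1* 1 each. *Lefty1* carried none in either list. Among all genes past the filter, 57.4% carried a WT peak on an exon and 43.6% an R255K peak. Having a peak was thus the common state in WT cells and not in R255K cells. The 1620-base transcript of *Lefty1* (Lefty1-201) held the letters GGAC 12 times, or 7.41 times per kilobase, against a median of 4.18 per kilobase over the longest coding transcripts of 10396 other genes. *Nodal* held 7.16 GGAC per kilobase in a transcript of 2095 bases and had 3 peaks. *Smad3*, with 2.36 per kilobase, had the highest enrichments of the 8 genes. The letters GGAC lay within 100 bp of the summit on the transcribed strand in 13 of the 15 WT peaks (86.7%), and in 79.0% of 13095 WT exonic peaks on genes of 1 strand. A match is a description of the sequence and not a mapped m6A site.

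The windows below hold the GGAC nearest to the summit for 7 of these peaks, in capitals, and are shown because they set peaks that R255K cells shared beside peaks that they did not. They were read from GRCm38.p6, the assembly of the mm10 coordinates of the peaks, and run 5' to 3' on the transcribed strand. The first 5 belong to peaks with an overlapping R255K peak and the last 2 to peaks without one.
Nodal peak 2, exon 2 (chr10:61423144-61423173, + strand): gggatccagagcgGGACcccgctgactgcc
Nodal peak 3, exon 3 (chr10:61424590-61424619, + strand): tggaacaccacaaGGACatgattgtggagg
Tdgf1 peak 1, exon 6 (chr9:110939870-110939899, - strand): ggaggctacaacaGGACtactaaaagctca
Smad3 peak 2, exon 9 (chr9:63648763-63648792, - strand): tgagatggtctgtGGACtgctgcttcagac
Smad3 peak 3, exon 9 (chr9:63647252-63647281, - strand): gtctctctcctgaGGACaatgacttggaag
Lefty2 peak 1, exon 4 (chr1:180897963-180897992, + strand): cccacttagccaaGGACatggctatgcagt
Skil peak 3, exon 7 (chr3:31118594-31118623, + strand): ccaagccctccaaGGACtaagagctgaaga
The window of Skil peak 3 lies 117 bases from the summit and holds the end of the coding sequence, its A being 1 base before the last coding base. In *Nodal*, the GGAC of peak 3 lies 28 bases before the last coding base, while the summit itself lies 51 bases past it, in the 3'UTR. The windows of *Tdgf1*, *Smad3* and *Lefty2* lie in 3'UTRs, between 168 bases (*Lefty2*) and 2999 bases (*Smad3* peak 3) past the last coding base.

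The peaks were then compared between the genotypes. Of the 15 WT peaks, 6 had no overlapping R255K peak (Wilson 95% interval of the share 19.8 to 64.3%), against 47.9% of the 13870 WT peaks on exons of all genes, so the share in these genes was near that of all genes. The peaks that were not called in R255K cells were those of *Lefty2* (1 of 1) and *Smad4* (2 of 2), 2 of the 3 of *Skil* and 1 of the 2 of *Smad2*. The peaks of *Nodal* (3 of 3), *Smad3* (3 of 3) and *Tdgf1* (1 of 1) all had an R255K counterpart. The 6 peaks without a counterpart had a WT fold enrichment of 2.37 to 4.58, with a median of 3.39, and the 9 with one had 3.21 to 15.8, with a median of 5.48. Over all genes the medians were 4.99 and 7.97. The ranges overlap, but each of the 6 highest WT enrichments belonged to a shared peak. The lists give no read counts, so the depth behind each peak is unknown, and a peak missing from a list is a peak that did not pass the caller's threshold, which need not mean that the mark was absent.

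*Skil* was the gene with peaks of both kinds in its coding sequence. Its first peak (chr3:31097812-31098452, exon 2) had a fold enrichment of 5.48 in WT and 6.93 in R255K cells. The second (chr3:31117456-31117754, exon 6) and the third (chr3:31118318-31118672, exon 7), with WT enrichments of 4.58 and 4.02, were in the WT list alone. Their summits are 63 bases apart in the spliced transcript although an intron lies between them, so they need not be separate sites. The only *Lefty2* peak (chr1:180897903-180898131), with its summit 234 bases past the last coding base in the 3'UTR, had a WT enrichment of 2.84. The *Smad4* peaks (chr18:73677749-73677996 in exon 2 and chr18:73640162-73640373 in exon 12) had WT enrichments of 3.12 and 3.67, the second with its summit 10 bases past the last coding base. *Smad2* kept the peak near its stop codon (chr18:76304625-76304993, summit 59 bases past the last coding base), at 4.46 in WT and 4.95 in R255K cells. Its weaker exon 2 peak (chr18:76262488-76262696), at 2.37 in WT cells, had no counterpart.

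In *Nodal*, the peak in exon 1 (chr10:61418289-61418648) had an enrichment of 3.29 in WT and 3.22 in R255K cells. The peak in exon 2 (chr10:61422882-61423842) had 5.15 and 3.06, the lowest ratio among the 9 shared peaks, at 0.593. The peak near the stop codon (chr10:61424331-61425324) had 6.41 and 5.87 and its summit lay 1 bp from the R255K summit. So the *Nodal* transcript had 3 overlapping peaks in both genotypes, though the exon 1 summits lay 78 bp apart. The 2 *Smad3* peaks in the 3'UTR had the highest enrichments. The first (chr9:63648523-63650262) had 15.8 in WT and 13.6 in R255K cells. The other (chr9:63646953-63647784) had 13.3 and 8.70. They were also much narrower in R255K cells, 370 bp against 1740 bp and 379 bp against 832 bp. The *Smad3* peak at the start of the gene (chr9:63757846-63758948) went the other way, with 5.58 in WT and 7.79 in R255K cells, as did the *Tdgf1* peak (chr9:110939677-110940085), with 3.21 and 3.88.

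Of the 9 shared peaks, 5 had a lower fold enrichment in R255K cells, all 9 were narrower and 8 had a lower -log10 q, the caller's measure of confidence. Over the 7231 shared exonic peaks of all genes, 70.6% had a lower enrichment, 86.3% were narrower and 83.7% had a lower -log10 q. The counts in these genes were thus close to those of all peaks. The -log10 q also depends on how many reads cover a transcript, and the RNA levels of these genes differed between the genotypes, as described next.

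**Figure D1:**
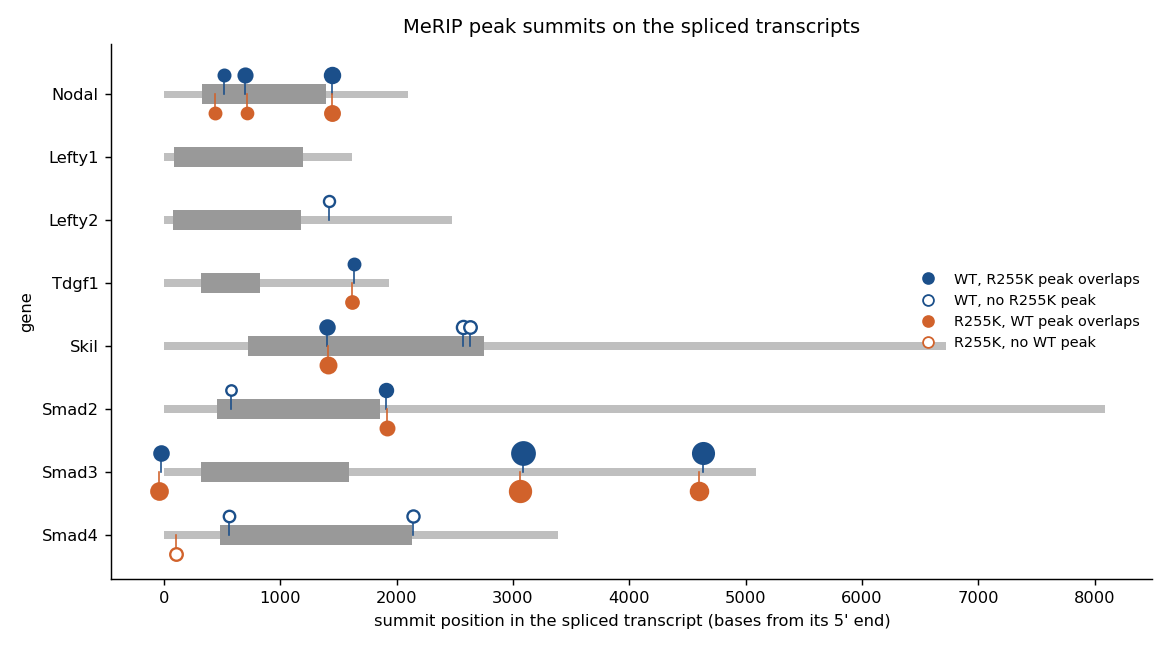
Summits of the MeRIP peaks on the spliced transcript of each gene, in bases from its 5' end, with coding sequence as the thick bar and UTRs as the thin bar. WT summits stand above the transcript and R255K summits below, the area of a circle grows with fold enrichment, and an open circle has no overlapping peak in the other list. *Nodal* and *Smad3* have filled circles at all 3 places, *Lefty1* has no circle, and the open WT circles are on *Lefty2*, *Skil*, *Smad2* and *Smad4*.

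**Figure D2:**
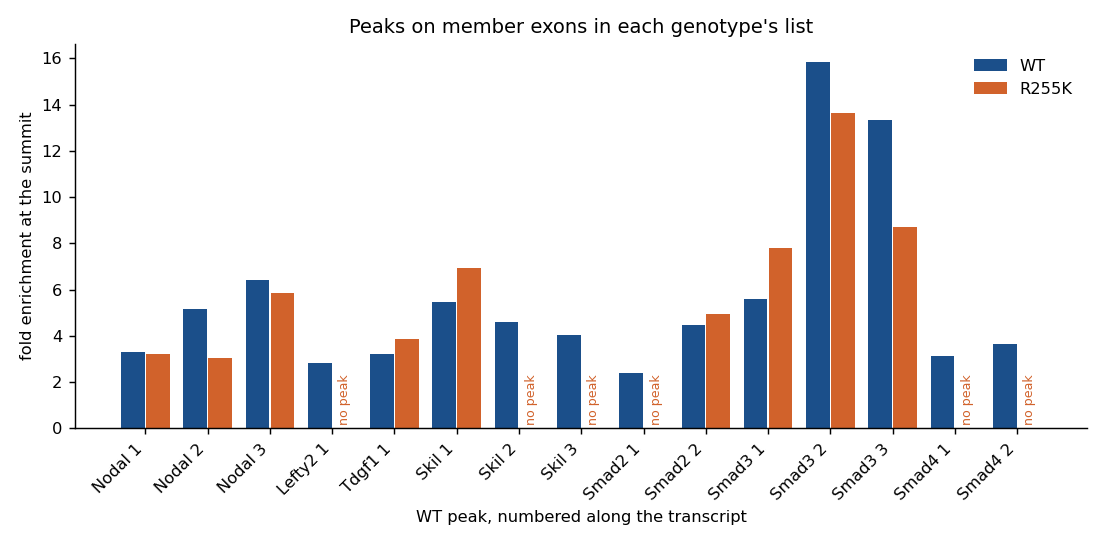
Fold enrichment at the summit (IP over local background) of the 15 WT peaks and of the overlapping R255K peak, 1 pair of bars per peak. The 6 peaks without an R255K bar had WT values of 2.37 to 4.58, and the tallest bars are the *Smad3* peaks 2 and 3, at 15.8 and 13.3 in WT cells.

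The next question was how much RNA of each gene the cells held before transcription was blocked. The ligand gene *Nodal* had 24.4 FPKM in the WT library (891 counts) and 42.8 FPKM in the R255K library (1402 counts) at 0 h, 1.75-fold more in R255K (interval 1.61 to 1.91). The antagonist genes were higher by more. *Lefty1* had 22.8 and 58.4 FPKM (700 and 1607 counts), a ratio of 2.56 (2.34 to 2.80), and *Lefty2* had 15.5 and 33.8 FPKM (707 and 1379 counts), a ratio of 2.17 (1.98 to 2.38). By library totals, the ligand and both antagonists thus had the highest ratios of the 8 at 0 h, an order that the GC correction below changed. The co-receptor gene *Tdgf1*, the most abundant of the 8, was lower in R255K cells, with 226 FPKM in WT and 149 FPKM in R255K (10346 and 6124 counts), a ratio of 0.660 (0.639 to 0.681). Of the signal transducers, *Smad2* (18.8 and 15.4 FPKM, ratio 0.819, interval 0.749 to 0.896) and *Smad4* (32.2 and 24.9 FPKM, ratio 0.774, 0.724 to 0.829) were also lower. *Smad3* had 3.64 and 4.14 FPKM, a ratio of 1.14 whose interval, 0.978 to 1.32, includes 1. The corepressor gene *Skil* had 8.49 and 10.0 FPKM, a ratio of 1.18 (1.10 to 1.27). The directions of *Tdgf1*, *Smad2* and *Smad4* were turned when the libraries were scaled to *Gapdh*, and those of the other 5 were the same under every scaling tried.

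With a 2-fold difference as the threshold, 2 of the 8 genes were higher in R255K at 0 h and 0 were lower, and of all genes past the filter 10.1% were higher and 9.90% lower. The 2 were *Lefty1* and *Lefty2*, and *Nodal* was just below the threshold. At 0 h the ratio of all genes followed the GC content of their exons. After a correction for that trend, *Lefty2* had a log2 difference of 0.96, just under the threshold, where it had 1.12 before. *Lefty1* then had 1.06 in place of 1.35, *Nodal* had 0.58 in place of 0.81, and *Skil*, whose exons are among the poorest in GC (39.9%), had 0.99 in place of 0.24. The order of the levels within a library also differed between the genotypes at 0 h. In WT cells it was *Tdgf1*, *Smad4*, *Nodal*, *Lefty1*, *Smad2*, *Lefty2*, *Skil* and *Smad3*, with *Nodal* (interval 22.8 to 26.1 FPKM) and *Lefty1* (21.2 to 24.6) not differing beyond counting error. In R255K cells *Lefty1*, *Nodal* and *Lefty2* all stood above *Smad4*.

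Part of the sequence of some of these genes is shared with other genes, which can move reads between them. Of all 50-base stretches of *Lefty1* exons, 17.9% also occur in *Lefty2*, and of those of *Lefty2* 12% occur in *Lefty1* or *Gm44212*. Summed over both genes, the Lefty counts were 1407 in WT and 2986 in R255K at 0 h, a ratio of 2.36 (2.22 to 2.52). This value does not depend on how counted reads were split between *Lefty1* and *Lefty2*. The paper's methods kept only unique reads of high mapping quality, so reads of shared stretches may be missing from the sum. *Tdgf1* shares 8.86% of its stretches with the pseudogene *Tdgf1-ps1*, which took 870 counts in WT and 572 in R255K at 0 h. The sum of both gave a ratio of 0.665 (0.645 to 0.686), near that of *Tdgf1* alone. The other 5 genes shared 0% of their stretches, and no exon of another GENCODE gene overlapped the exons of any of the 8 (0 bases). The counted exons of *Smad2* ended 5232 bases before the end that GENCODE gives the gene, so reads from that stretch are not in its counts.

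**Figure D3:**
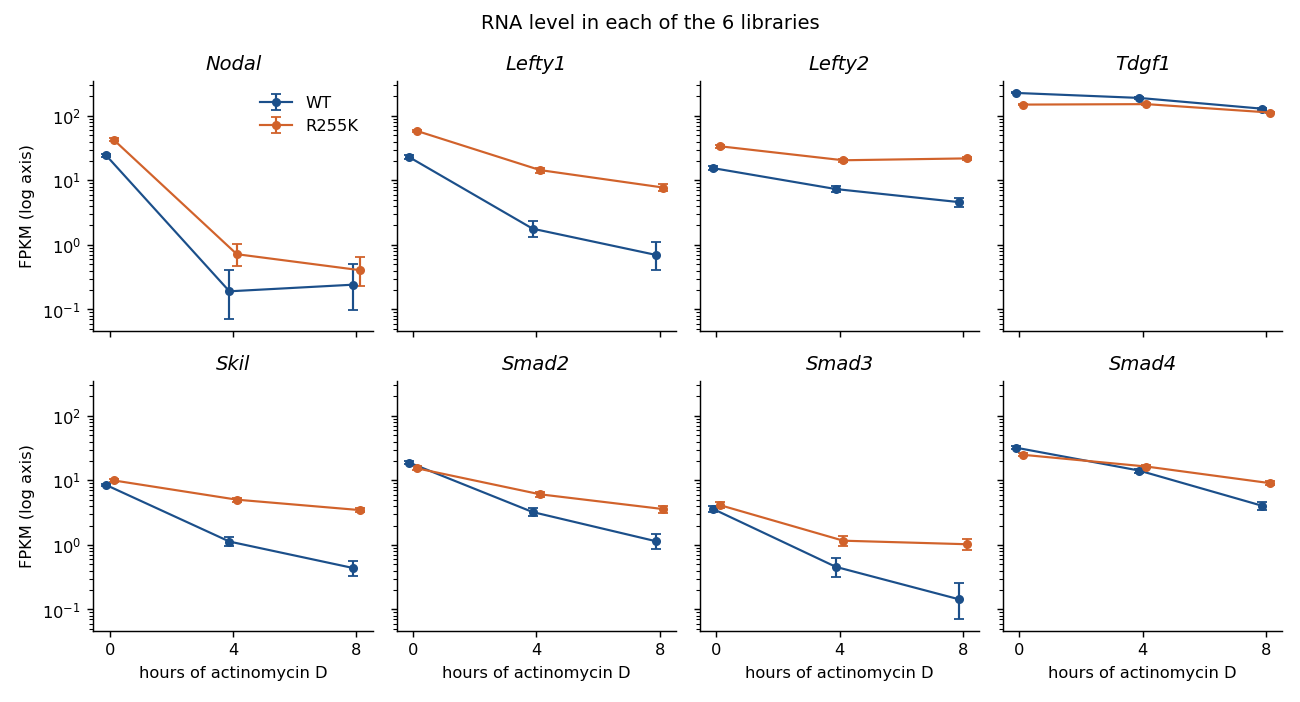
RNA level (FPKM, log axis shared by all panels) of each gene in the 6 libraries against hours of actinomycin D, WT and R255K points set slightly apart. Error bars are 95% Poisson intervals of the count and cover counting error only. *Nodal* drops from 24.4 to 0.191 FPKM within 4 h in WT cells, while *Tdgf1* stays above 100 FPKM in all 6 libraries.

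Decay was then read from the libraries taken after 4 and 8 h. All values are shares of the counted reads, so a gene that kept its share of a shrinking pool would read as 100% left. *Nodal* mRNA was nearly gone within 4 h in both genotypes. In WT cells 24.4 FPKM at 0 h became 0.191 at 4 h and 0.242 at 8 h, or 0.783% and 0.991% of the start, on 6 and 7 counts. In R255K cells 42.8 FPKM became 0.719 and 0.406, or 1.68% and 0.949%, on 28 and 16 counts. No difference between the genotypes in the share left at 8 h was detectable at this depth, since the intervals were 0.397 to 2.05% in WT and 0.541 to 1.55% in R255K cells.

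The antagonist genes lasted longer than *Nodal*, and longer in R255K than in WT cells. *Lefty1* went from 22.8 to 1.78 and 0.700 FPKM in WT cells, leaving 7.81% and 3.06%, and from 58.4 to 14.4 and 7.74 FPKM in R255K cells, leaving 24.7% and 13.2%. *Lefty2* went from 15.5 to 7.34 and 4.60 FPKM in WT cells, leaving 47.2% and 29.6%. In R255K cells it went from 33.8 to 20.5 and 21.9 FPKM, leaving 60.7% and 64.9%. Its level at 8 h was thus 107% of that at 4 h in R255K cells (interval 98.0 to 117), and 62.7% in WT cells (51.5 to 76.2). The co-receptor gene *Tdgf1* was the most stable member. It went from 226 to 189 and 129 FPKM in WT cells (83.7% and 56.9% left) and from 149 to 152 and 113 FPKM in R255K cells (102% and 75.4% left).

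*Skil* kept a larger share in R255K cells. In WT cells 8.49 FPKM became 1.13 and 0.441, or 13.3% and 5.19%, and in R255K cells 10.0 FPKM became 5.03 and 3.47, or 50.3% and 34.6%. The Smad genes were short-lived in WT cells and lasted longer in R255K cells. *Smad2* went from 18.8 to 3.23 and 1.14 FPKM in WT (6.07% left at 8 h) and from 15.4 to 6.09 and 3.59 FPKM in R255K (23.3% left). *Smad3* went from 3.64 to 0.458 and 0.144 FPKM in WT (3.94% left, on 11 counts) and from 4.14 to 1.16 and 1.03 FPKM in R255K (24.8% left, on 107 counts). *Smad4* went from 32.2 to 14.2 and 4.04 FPKM in WT (12.5% left) and from 24.9 to 16.4 and 9.08 FPKM in R255K (36.4% left). The intervals of the 8 h shares did not overlap between the genotypes for any of the 8 genes other than *Nodal*.

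By this measure 7 of the 8 genes had under 50% of the 0 h level left at 8 h in WT cells, all but *Tdgf1*, against 43.4% of all genes. In R255K cells the number was 6 of 8, all but *Tdgf1* and *Lefty2*, against 22.6% of all genes. At 4 h the numbers were 7 of 8 against 28.3% in WT cells and 4 of 8 against 13.5% in R255K cells. In WT cells the median share left at 8 h was 5.63% over the 8 genes and 64.1% over all genes. In R255K cells it was 29.7% over the 8 genes and 92.0% over all genes. By the share left at 8 h, each of the 8 genes was thus below the median of all genes in both genotypes. At 4 h *Tdgf1* in R255K cells, with 102% left, was above the median of 96.4%.

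Half-lives were computed from the mean of the decay rates over 4 and 8 h. Both genotypes gave one for 46.8% of the genes. *Nodal* had the shortest half-life, 0.775 h in WT (0.689 to 0.885) and 0.864 h in R255K cells (0.808 to 0.93), a ratio of 1.12 with an interval of 0.967 to 1.29. Its WT level did not fall further from 4 to 8 h (0.191 and 0.242 FPKM, on 6 and 7 counts). The rates over 4 h and over 8 h thus differed, which these intervals do not cover. The ratio of *Nodal* was 1.19 from 4 h alone and 0.991 from 8 h alone. Of the antagonists, *Lefty1* had 1.29 h and 2.30 h (ratio 1.78, 1.60 to 1.98), and *Lefty2* had 4.08 h and 7.75 h (ratio 1.90, 1.56 to 2.31). For *Lefty2* the ratio was 2.81 from 8 h alone and 1.502 from 4 h alone, both outside that interval, which covers counting error only. From 4 to 8 h alone *Lefty2* gave no ratio, since its R255K level at 8 h was 107% of that at 4 h. In both genotypes *Lefty2* outlasted *Lefty1* although their proteins have the same role. *Skil* had 1.59 h and 4.55 h, a ratio of 2.87 (2.58 to 3.20), which became 1.68 after the correction for GC content. The Smad genes had ratios close to each other, at 1.91 for *Smad2* (1.75 h and 3.35 h, interval 1.70 to 2.14), 1.88 for *Smad3* (1.5 h and 2.82 h, 1.57 to 2.25) and 2.01 for *Smad4* (2.99 h and 6.0 h, 1.76 to 2.29). *Tdgf1* had 12.1 h and 44.4 h, a ratio of 3.68 (2.53 to 5.37). Both of its half-lives are longer than the 8 h that were followed, so they rest on small decreases. The ratio of *Tdgf1* was 1.99 from the 8 h libraries alone, 1.29 from 4 to 8 h alone and 2.05 with TMM scaling (the trimmed mean of M values of edgeR), and *Gapdh* scaling gave none. From 4 to 8 h alone that of *Smad3* was 9.18, on 11 counts in the WT library at 8 h.

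A ratio above 1.5 was found for 7 of the 8 genes, all but *Nodal*, and for 68.8% of the 5504 genes with a half-life in both genotypes. A ratio below 1/1.5 was found for 0 of the 8 and for 5.78% of the 5504. The median ratio was 1.90 over the 8 genes and 1.98 over all of them, so the longer half-lives of these genes in R255K cells were of the size seen across the transcriptome. Relative to the median ratio, by library totals, only *Tdgf1* (1.86) stood above 1.5 and only *Nodal* (0.564) stood below 1/1.5. The value of *Nodal* rests on 6 to 28 counts per library after treatment. With TMM scaling the ratio of *Tdgf1* (2.05) was close to the median gene (1.76), so its call rests on the scaling. By library totals the remaining genes lay nearer to the median, with *Skil* at 1.45 and the other 5 genes between 0.90 and 1.01. The ratio depends on how the libraries are scaled. With *Gapdh* as the reference it was above 1.5 for 0 genes and below 1 for 6 of the 7 that gave a value. The count of *Gapdh* itself ranged from 242 to 2357 between the libraries.

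**Figure D4:**
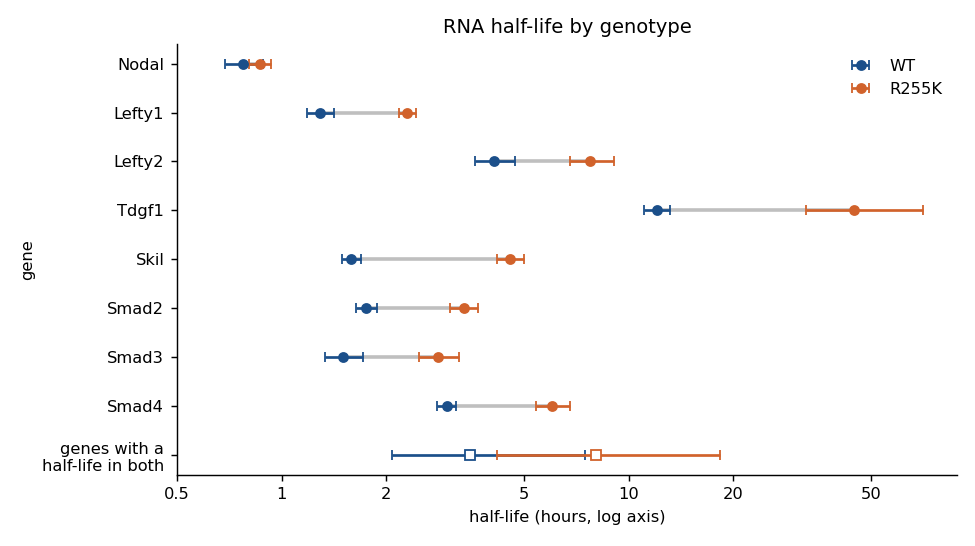
Half-life in hours (log axis) of each gene in WT and R255K cells with its 95% counting interval, by scaling to the library totals. Open squares are the medians over the 5504 genes with a half-life in both genotypes, and their bars are quartiles. *Nodal* lies at 0.775 and 0.864 h with intervals that overlap, and the other 7 genes lie further right in R255K cells, an order that was turned for *Lefty1*, *Lefty2*, *Smad2*, *Smad3* and *Smad4* when *Gapdh* was the reference.

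The difference in level between the genotypes was then followed over time. These ratios and the decay values above rest on the same 6 libraries, including both 0 h libraries, and are 2 views of 1 set of counts. At 4 h the ratio of R255K to WT was 3.76 for *Nodal* (1.53 to 11.1), 8.09 for *Lefty1*, 2.79 for *Lefty2*, 4.46 for *Skil* and 2.54 for *Smad3*, so that 5 of 8 genes were at least 2-fold higher, against 21.0% of all genes, and 0 of 8 were at least 2-fold lower, against 3.99%. *Smad2* (1.88), *Smad4* (1.15) and *Tdgf1* (0.801) were within 2-fold. At 8 h it was 11.1 for *Lefty1* (6.77 to 19.3), 7.86 for *Skil* (6.02 to 10.5), 7.14 for *Smad3* (3.84 to 14.7), 4.76 for *Lefty2* (4.04 to 5.64), 3.15 for *Smad2* (2.34 to 4.29) and 2.25 for *Smad4* (1.92 to 2.64). These are 6 of 8 genes, against 35.1% of all genes, and 0 of 8 were at least 2-fold lower, against 3.92%. *Nodal*, with a ratio of 1.68, had an interval of 0.653 to 4.82 on 7 and 16 counts, and *Tdgf1* had 0.873 (0.840 to 0.908), a direction that was turned with ribosomal protein genes (log2 0.16) and with *Gapdh* (0.58) as the reference.

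The median gene also moved over time. The median log2 ratio of all genes was 0.06 at 0 h, 0.23 at 4 h and 0.51 at 8 h, and that of the 8 genes was 0.21, 1.41 and 1.95. Relative to the median gene, 5 of the 8 were at least 2-fold higher at 8 h, *Lefty1* by 2.95 on the log2 scale, *Skil* by 2.46, *Smad3* by 2.32, *Lefty2* by 1.74 and *Smad2* by 1.14, while *Smad4* stood at 0.66. *Nodal*, *Lefty1*, *Lefty2*, *Skil* and *Smad3* were above the median gene at all 3 times, and *Tdgf1* was below it at all 3. For *Nodal* at 8 h the difference was only 0.23, on 7 counts in WT and 16 in R255K cells. With *Gapdh* as the reference, *Smad2*, *Smad3* and *Smad4* were lower in R255K at 4 h and *Tdgf1* was higher at 0 and 8 h. With TMM scaling *Smad4* at 4 h was also turned, to a log2 ratio of -0.019. The 6 genes that were at least 2-fold higher at 8 h were higher in R255K at that time under every scaling tried.

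**Figure D5:**
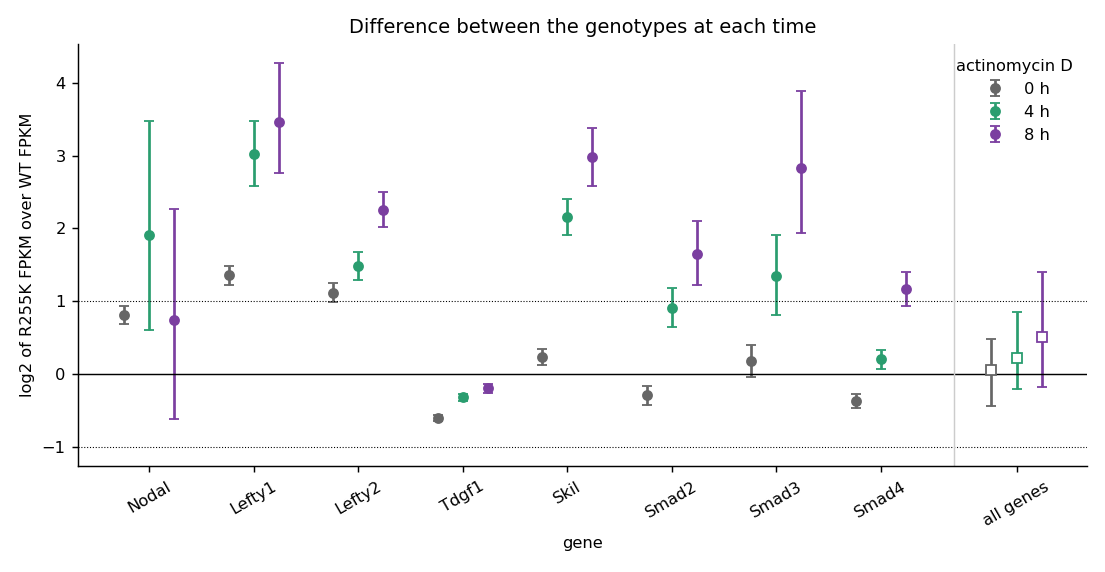
Log2 of the R255K level over the WT level of each gene at 0, 4 and 8 h, by library totals, with 95% counting intervals. Open squares are the medians of all genes past the filter with quartiles as bars, and dotted lines mark 2-fold. At 8 h *Lefty1*, *Skil* and *Smad3* lie between 2.84 and 3.47, above the upper quartile of all genes at 1.40, and *Tdgf1* is the only gene below 0 at all 3 times, which was turned at 0 and 8 h with *Gapdh* and at 8 h with ribosomal protein genes as the reference.

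Peaks and decay can be set side by side, gene by gene. *Lefty1* had no peak in either list and a half-life ratio of 1.78, while *Lefty2* had 1 peak, not called in R255K cells, and a ratio of 1.90. *Smad4*, with both WT peaks without a counterpart, had 2.01, *Smad2*, with 1 of 2 without, had 1.91, and *Smad3*, with all 3 shared, had 1.88. *Skil*, with 2 of 3 without a counterpart, had 2.87. *Tdgf1*, whose peak was shared, had 3.68 by library totals (2.05 with TMM scaling) and *Nodal*, whose 3 peaks were shared, had 1.12. Over 8 genes, no relation between lost peaks and decay was tested.

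The rest of the pathway was read from lists of 34 further genes, of which 22 passed the filter. At 0 h 1 of the 22 was at least 2-fold higher in R255K and 1 was lower, against 10.1% and 9.90% of all genes. At 4 h the numbers were 5 and 1, against 21.0% and 3.99%, and at 8 h 14 and 1, against 35.1% and 3.92%. Their median log2 ratio was 0.02, 0.81 and 1.39 at 0, 4 and 8 h, by library totals, beside 0.06, 0.23 and 0.51 over all genes. The 5 that were higher at 4 h were *Fst* (2.53), *Tgif1* (2.76), *Trim33* (2.01), *Smurf2* (2.32) and *Pmepa1* (2.27). A half-life ratio above 1.5 was found for 14 of the 18 that gave one, with a median of 1.93, against 68.8% and a median of 1.98 over all genes. A ratio below 1/1.5 was found for 1, *Foxh1* (0.509, 0.278 to 0.932), against 5.78%. The 14 include *Acvr2b* (29.2, 0.438 to 1945) and *Tmeff1* (28.3, 2.07 to 387). Their R255K half-lives, 145 h each, are far longer than the 8 h followed. On their exons lay 43 WT peaks, of which 13 had no R255K counterpart, against 47.9% of all WT exonic peaks, and 33 R255K peaks. The gene that was at least 2-fold lower at all 3 times was the ligand gene *Inhbb*, which encodes a subunit of activin B. It had 36.8, 3.76 and 2.57 FPKM in WT and 9.81, 1.74 and 1.27 FPKM in R255K cells (ratio 0.266 at 0 h, 0.244 to 0.290). *Gdf3*, a ligand that also uses Cripto, had 70.4 and 78.1 FPKM at 0 h and a ratio of 2.33 at 8 h. So at 0 h the ligand gene *Nodal* was higher in R255K while *Inhbb* was lower. The antagonist gene *Dand5*, with 0.906 and 2.14 FPKM on 25 and 53 counts, was the 1 gene of these lists at least 2-fold higher at 0 h (ratio 2.36, 1.44 to 3.97). *Tmeff1*, the most abundant gene of the antagonist list, had 55.0 and 31.5 FPKM at 0 h (ratio 0.572, 0.534 to 0.613). At 8 h the ratio of *Dand5* was 3.18, and that of *Fst*, which encodes the activin antagonist follistatin, was 8.44 on 2 counts in WT and 23 in R255K cells (2.09 to 73.9). *Furin*, a protease that cleaves the Nodal precursor, had a ratio of 1.42 at 0 h and 3.65 at 8 h, and *Pcsk6*, which encodes a protease of the same family, 0.583 and 0.601.

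The counts of each list at 8 h stand beside the 35.1% of all genes that were at least 2-fold higher then. Of the receptor genes, 1 of the 3 past the filter was so, *Acvr2b*, a type II activin receptor, with 2.95 FPKM in WT and 8.32 in R255K cells (ratio 2.82, 2.37 to 3.38). Of the 6 nuclear partners and corepressors, 4 were at least 2-fold higher at 8 h, as *Skil* was. They were *Ski*, the relative of *Skil* (3.75), *Tgif1* (3.95), *Tgif2* (3.53) and *Trim33* (5.14). *Foxh1*, the DNA-binding partner of the SMADs at Nodal targets, had 32.6 and 61.3 FPKM at 0 h, a ratio of 1.88 (1.71 to 2.06). At 4 h 93.1% of it was left in WT and 73.2% in R255K cells, and at 8 h 69.5% and 69.1%. Of the 5 genes for SMAD turnover and anchoring, 4 were at least 2-fold higher at 8 h, *Smurf1* (3.12), *Smurf2* (3.95), *Ppm1a* (2.45) and *Zfyve9* (2.34), and *Smad7* had 1.88. Of 7 target genes, only *Pmepa1* passed the filter, with a ratio of 0.862 at 0 h and 3.82 at 8 h.

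For each member, the 2 genes with the most similar profile were found among 11861 other genes past the filter, by the distance between log2(FPKM + 1) values over the 6 libraries after their means were taken out. They were *Zfp296* and *Myc* for *Nodal* (distances 0.68 and 0.71), *Pop7* and *Riox1* for *Lefty1* (0.50 and 0.73), and *Klhl26* and *Gprc5b* for *Lefty2* (0.25 and 0.27). For *Tdgf1* they were its own pseudogene *Tdgf1-ps1* and *Dclk2* (0.16 and 0.16), and for *Skil* *Plekhm1* and *Pde12* (0.25 and 0.26). They were *Hexim1* and *Ccnt1* for *Smad2* (0.17 and 0.18), *Dnmbp* and *Dcun1d3* for *Smad3* (0.12 and 0.13), and *Mms22l* and *Stard7* for *Smad4* (0.19 and 0.20). *Myc*, a textbook short-lived mRNA, had 49.6, 1.74 and 1.17 FPKM in WT and 55.4, 3.03 and 1.76 FPKM in R255K cells, beside the 24.4, 0.191 and 0.242 FPKM and 42.8, 0.719 and 0.406 FPKM of *Nodal*. The distances of *Nodal* and *Lefty1* were larger than those of the other 6, so no gene lay as close to them.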

How the data were processed

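The counts are whole reads per gene as the authors counted and deposited them, without normalization. The peak lists, with fold enrichment and -log10 q as deposited by the authors, came from MACS2 on reads aligned to mm10 with HISAT2 after rRNA reads were removed with Bowtie2 2.2.6. The submitters' processing notes also name Picard 2.16.0 and SAMtools 0.1.09. The counting tool, its annotation and how the 2 libraries of a genotype were joined for peak calling are not given in the sources used here. The library kit does not mark strand.

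FPKM used the exon length and the summed counts of each library. Half-lives took the mean of ln(0 h/4 h)/4 and ln(0 h/8 h)/8, with counts under 3 set to 3. With 1 library per group no test across genes was made, no p-value is given, and differences were read against 2-fold, 1.5 for half-life ratios and 50% left. Peaks overlapped from 1 bp. The half-life script was tested on simulated counts with equal library totals and a single decay rate per gene. That simulation could not test the effect of scaling or of decay at changing rates. The 8 genes and the lists were chosen with earlier results of these data known. All 8 genes are named. Of the other pathway genes, those past 2-fold are named or, in a list with none, the one with the highest mean level, together with *Foxh1*, *Pcsk6*, *Tmeff1* and *Smad7*, chosen after their values were seen. Alternatives were TMM, ribosomal protein and *Gapdh* scaling, a GC correction (lowess span 0.3), pseudocounts, thresholds, time points and peak criteria. The tools were bedtools 2.31.1, pysam 0.24.0, scipy 1.17.1, pandas 2.3.3, numpy 2.4.6, statsmodels 0.14.6 and matplotlib 3.10.9 under Python 3.11.15, and edgeR 4.0.16 under R 4.3.3 (TMM factors alone). Some items are not reported here.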

Additional observations from a re-analysis of the deposited data

Results flagged for a closer look

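In several genes the level after actinomycin D lay on different sides of the 0 h level in the 2 genotypes. With 1 library each, these differences were not tested. Among the members this was *Tdgf1*, with 102% of the 0 h level at 4 h in R255K cells (98.3 to 105) and 83.7% in WT cells (81.2 to 86.2). The R255K interval includes 100%. Among the other pathway genes, *Ppm1a* had 113% at 4 h and 109% at 8 h in R255K cells and 70.5% and 48.1% in WT cells. *Zfyve9* had 112% and 113% in R255K cells and 77.6% and 60.3% in WT cells. *Tmeff1* had 114% at 4 h in R255K cells and 63.5% in WT cells, and *Acvr2b* had 103% at 8 h against 34.8%. *Drap1* went the other way, with 99.9% at 4 h in R255K cells and 156% in WT cells.

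One R255K peak on a member's exon had no WT counterpart and entered no comparison of the report. It lay at the 5' end of *Smad4* (chr18:73703576-73703780), in the 5'UTR with its summit 104 bases from the annotated start, with an enrichment of 4.02-fold at a -log10 q of 8.00. Over all genes 13.1% of the R255K exonic peaks had no WT counterpart.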

How the results depend on the processing

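The half-life call depended most on scaling. The number of members with a ratio over 1.5, which was 7, became 0 with *Gapdh* as the reference (with 2 under 1/1.5), 1 relative to the median gene (with 1 under 1/1.5, *Nodal*), and 3 when a ratio over 2 was asked for. With *Gapdh*, the ratio was 0.923 for *Lefty1*, 0.295 for *Lefty2*, 0.783 for *Smad2*, 0.867 for *Smad3* and 0.476 for *Smad4*, and the log2 difference of *Smad3* at 4 h was -0.042. Relative to the median gene, an alternative added after seeing the data, as was the use of GENCODE exons for peaks, it was 0.90 for *Lefty1*, 0.959 for *Lefty2*, 0.964 for *Smad2* and 0.949 for *Smad3*. The number at least 2-fold higher at 0 h, which was 2, became 1 with ribosomal protein genes as the reference, 1 after the GC correction and 7 with *Gapdh*, and at a 1.5-fold threshold 1 gene, *Tdgf1*, was lower. Of the 9 WT peaks enriched 4-fold or more, 3 had no R255K peak of that enrichment. The number at least 2-fold higher at 8 h was between 5 and 7 under all alternatives. With 1 added to each FPKM, *Smad3* at 8 h fell under the threshold (log2 0.83 in place of 2.84). *Skil* (1.63 in place of 2.98) and *Lefty1* (2.36 in place of 3.47) stayed above it. The numbers with under 50% left stayed within 7 to 8 in WT and 6 to 8 in R255K cells. The cause of these changes was not tested.

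No paired analysis was possible because the MeRIP replicate numbers enter 1 pooled peak list per genotype and each actinomycin D group is 1 library. For the same reason no library could be left out. Scaling to *Gapdh* moved the median log2 ratio of all genes to 1.49, -1.16 and 1.29 at 0, 4 and 8 h, and TMM moved it to 0.01, 0.00 and 0.08. Depth limits *Nodal* after treatment (6 to 28 counts) and, at 8 h in WT cells, *Smad3* (11 counts) and *Lefty1* (17 counts).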

Other observations

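Target genes of the pathway that are switched on in mesoderm and endoderm were close to the detection limit in WT cells and below the filter, and had more counts in R255K cells at 0 h. *T* (Brachyury) had 11 counts in the WT library and 45 in the R255K library, 0.273 and 1.24 FPKM (ratio 4.56, 2.32 to 9.77). *Eomes* had 40 and 90 counts (ratio 2.51, 1.71 to 3.74), *Foxa2* 12 and 62 (5.76, 3.07 to 11.7), and *Mixl1* 16 and 32 (2.23, 1.19 to 4.35). *Gsc* had 4 and 6 counts, a ratio of 1.67 with an interval of 0.396 to 8.05. These levels are far below those of *Nodal*, *Lefty1* and *Lefty2* in the same libraries, at 15.5 to 58.4 FPKM. The mesoderm and trophoblast markers were also higher in the R255K library at 0 h, and their part in these values was not tested. *Gdf1* was listed at 0 in all 6 libraries, although 2 WT peaks lay on its exons. Why it had no counts was not tested.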
